A study of Bos taurus with 16 samples.

Results

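The genes described here encode the proteins of the cytosolic ribosome. They were taken by symbol from the platform annotation: every symbol that starts with RPL or RPS and a digit, plus RPSA, RPLP0, RPLP1 and RPLP2, without the RPS6K kinases. This gave 69 genes of the 9155 with a symbol, each represented by the one of its probe sets that was brightest on average over the 16 arrays. Of the 69, 43 belong to the large (60S) subunit or are named as its paralogs, 25 to the small (40S) subunit, and 1, RPS19BP1, carries the name but encodes a nuclear regulator of the deacetylase SIRT1. RefSeq lists 17 further cattle genes that fit the rule and have no probe set named here, among them RPLP1, RPL6 and RPS27A; they were not analysed here. The samples were theca interna cells from the ovaries of adult cattle, the androgen-producing layer of the follicle wall, pooled over many follicles and kept in primary culture without serum for 6 days. From day 3 to day 6 they received luteinising hormone (LH, 160 pg/ml) with bone morphogenetic protein 6 (BMP6, 10 ng/ml), named LH+BMP6 below, BMP6 alone, LH alone, or neither (control), with 4 Affymetrix bovine arrays per group. The experiment was done 4 times, on separate batches of ovaries, and RNA came from whole, unsorted cultures.

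The ribosome reads messenger RNA and joins amino acids into protein. The small subunit decodes the message, the large subunit forms the peptide bond, and the stalk of acidic P proteins on the large subunit recruits elongation factors. Ribosomal protein messages are among the most abundant in growing cells and are made in step with one another, and in mammals they carry a 5′ terminal oligopyrimidine tract, shared with several elongation factor messages, through which the kinase mTOR controls their translation. LH drives steroid synthesis in theca cells through cAMP, and BMP6, made by the oocyte and granulosa cells, is known to restrain androgen output.

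Values are log2 signals: a difference below 0 is a lower signal in the group named first. Differences are given ± SE with 4 arrays per group, levels as mean ± SD, and a gene is called at a limma p, adjusted over 24016 probe sets, under 0.05. No gene was removed for low signal, so all 69 were tested. Quartiles were nearly equal on all arrays: the lower quartile lay between 4.31 and 4.43 and the brightest probe set between 14.07 and 14.41. A difference here is therefore one relative to the other transcripts on the array, and a change that all transcripts share would not be seen. Fewer cells of a type and less RNA per cell cannot be told apart in these cultures. In 3 arrays, control replicates 1 and 3 and LH replicate 1, the hybridisation controls stood apart, at 8.66 to 8.71 against 9.84 to 10.17 on the 13 others.

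Most of these genes lay at the top of the signal range. Signals of different probe sets also depend on the probes, so their order is not an order of transcript amounts. In mean signal over the 16 arrays 59 of the 69 reached 12 or more, and 49 were among the 100 brightest named genes. RPS26 (13.53), RPS29 (13.52) and RPS12 (13.52), all small-subunit proteins, were the brightest, followed by RPLP0 (13.47), the anchor of the P stalk and a frequent reference gene in quantitative PCR, and RPL35 (13.44). RPLP0 stood at 13.56 ± 0.02 in control cells, with 13.54, 13.59, 13.55 and 13.55 on the 4 arrays. The least bright were RPL26L1 (9.66), a near copy of RPL26, RPS19BP1 (8.92), RPL3L (4.87), the paralog of RPL3 known from striated muscle, RPS19 (4.60) and RPL37 (3.86). The last 3 lay near the lower quartile of an array. RPS19 and RPL37 encode core proteins of the small and the large subunit, and the probe sets named for them were as dim in every group: RPL37 gave 3.96, 3.89, 3.77 and 3.83 on the control arrays. The annotation may be wrong for both, so their values may not be those of the genes. 

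BMP6 alone was set against control to ask what the growth factor does to unstimulated theca cells. Ribosomal protein genes fell together. With BMP6 57 of the 69 genes were called lower and 0 higher, while of all 9155 genes 24.8% were called, 15.5% lower and 9.31% higher. The median difference was -0.25 (the signal fell by 15.9%), against -0.02 over all genes. The values of all 69 were below 0, from -0.55 for RPL29 to -0.01 for RPL37. For 61 of the 69, every BMP6 array lay below every control array, which held for 19.4% of all genes. The differences were small and the replicates close: the median signal of the 69 genes was 12.89, 12.74, 12.87 and 12.82 on the BMP6 arrays, against 13.07, 13.15, 13.09 and 13.06 on the control arrays. The count depended on the arrays used. It was 37, with 0 higher, without the 3 arrays set apart by their hybridisation controls, and 37 without replicate 4, and a renewed quantile normalization gave a median of -0.17 with 38 called lower.

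**Figure D1:**
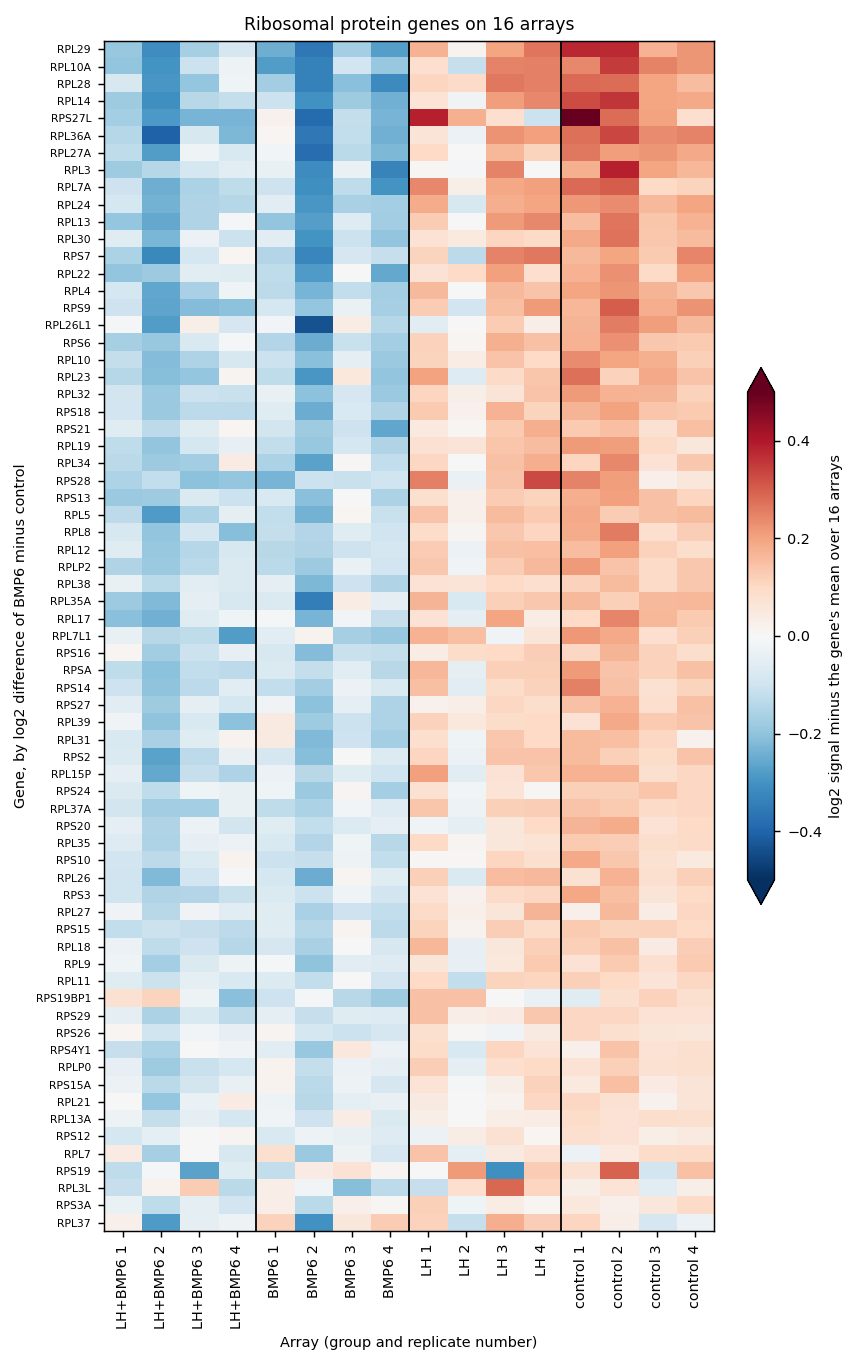
Log2 signal of 69 ribosomal protein genes (rows, ordered by the difference of BMP6 minus control) on 16 arrays (columns, grouped by treatment), each shown as the deviation from the gene's own mean over the 16 arrays, with colours capped at 0.5 either way. On the LH+BMP6 arrays 61 to 67 of the 69 genes lie below their own mean (blue) and on the BMP6 arrays 53 to 67, against 35 on LH replicate 2, 2 to 4 on the other LH arrays and 0 to 3 on the control arrays.

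The 4 largest falls were those of large-subunit genes. Of the 43, 37 were called lower and 0 higher, with a median of -0.26. RPL29, which encodes a basic protein also known for binding heparin, had 12.37, 12.26, 12.45 and 12.34 on the BMP6 arrays, against 12.99, 12.99, 12.79 and 12.84 on the control arrays. The groups did not overlap, and the fall was the largest of the 69 (-0.55 ± 0.07, adjusted p = 4.28e-05), so that the signal fell by 31.7%. RPL10A, a protein of the flexible L1 stalk, stood at 11.52, 11.46, 11.71 and 11.61 with BMP6, against 12.04, 12.15, 12.05 and 12.02 in control (-0.49 ± 0.08, adjusted p = 0.000537). RPL28 had 12.25, 12.09, 12.22 and 12.11 on the BMP6 arrays, against 12.71, 12.70, 12.62 and 12.58 on the control arrays (-0.49 ± 0.07, adjusted p = 9.52e-05). All 4 BMP6 arrays lay below all 4 control arrays for both genes.

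RPL14 fell too, with 12.47, 12.27, 12.39 and 12.33 on the BMP6 arrays, against 12.90, 12.93, 12.77 and 12.76 on the control arrays (-0.47 ± 0.07, adjusted p = 0.000151). RPL36A gave 11.81, 11.45, 11.68 and 11.56 on the BMP6 arrays, against 12.08, 12.13, 12.04 and 12.05 on the control arrays (-0.45 ± 0.08, adjusted p = 0.00122). In both, BMP6 replicate 1 was the highest BMP6 array and still lay below every control array. RPL27A (-0.41 ± 0.07, adjusted p = 0.000733), RPL3, whose protein reaches toward the peptidyl transferase centre (-0.41 ± 0.08, adjusted p = 0.00184), RPL7A (-0.41 ± 0.07, adjusted p = 0.000524) and RPL13 (-0.36 ± 0.07, adjusted p = 0.00126) also fell, each without overlap between the groups. For RPL3 the BMP6 arrays read 12.70, 12.42, 12.71 and 12.41, against 12.92, 13.13, 12.94 and 12.90 on the control arrays, where replicate 2 stood above the rest. The 24 large-subunit genes outside the naming rule had values from -0.37 (RPL24) to -0.11, with 21 called lower and 0 higher.

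RPL5 and RPL11, which bind 5S ribosomal RNA together and, when free of ribosomes, the p53 regulator MDM2, both fell. RPL5 had 12.91, 12.79, 13.04 and 12.92 on the BMP6 arrays, against 13.22, 13.15, 13.18 and 13.19 on the control arrays (-0.27 ± 0.06, adjusted p = 0.00423), and the call was lost without the 3 arrays set apart by their hybridisation controls (-0.26, adjusted p = 0.0545). RPL11 had 13.24, 13.19, 13.31 and 13.22 on the BMP6 arrays, against 13.43, 13.41, 13.38 and 13.41 on the control arrays (-0.17 ± 0.05, adjusted p = 0.0426). The RPL11 call was lost in 19 of 31 other settings, among them quantile normalization (-0.08, adjusted p = 0.317). RPL35, among the 5 brightest of these genes, stood at 13.34 ± 0.06 with BMP6 and 13.55 ± 0.02 in control (-0.21 ± 0.05, adjusted p = 0.00469), a call lost with quantile normalization (adjusted p = 0.0633).

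In the P stalk RPLP2 was lower with BMP6, at 12.91, 12.87, 13.01 and 12.95, against 13.26, 13.19, 13.14 and 13.18 in control (-0.26 ± 0.05, adjusted p = 0.00249). RPLP0 was not called (-0.13 ± 0.05, adjusted p = 0.0804), although its arrays did not overlap, with 13.49, 13.35, 13.44 and 13.42 on the BMP6 arrays, against 13.54, 13.59, 13.55 and 13.55 on the control arrays. RPSA, a small-subunit protein that is also the precursor of the laminin receptor, also fell: it had 13.03, 12.99, 13.05 and 12.97 on the BMP6 arrays, against 13.32, 13.25, 13.22 and 13.25 on the control arrays (-0.25 ± 0.05, adjusted p = 0.00251). FAU, whose product is cleaved into the small-subunit protein eS30 and a ubiquitin-like peptide and which the symbol rule does not take in, fell as well (-0.30 ± 0.05, adjusted p = 0.000505).

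**Figure D2:**
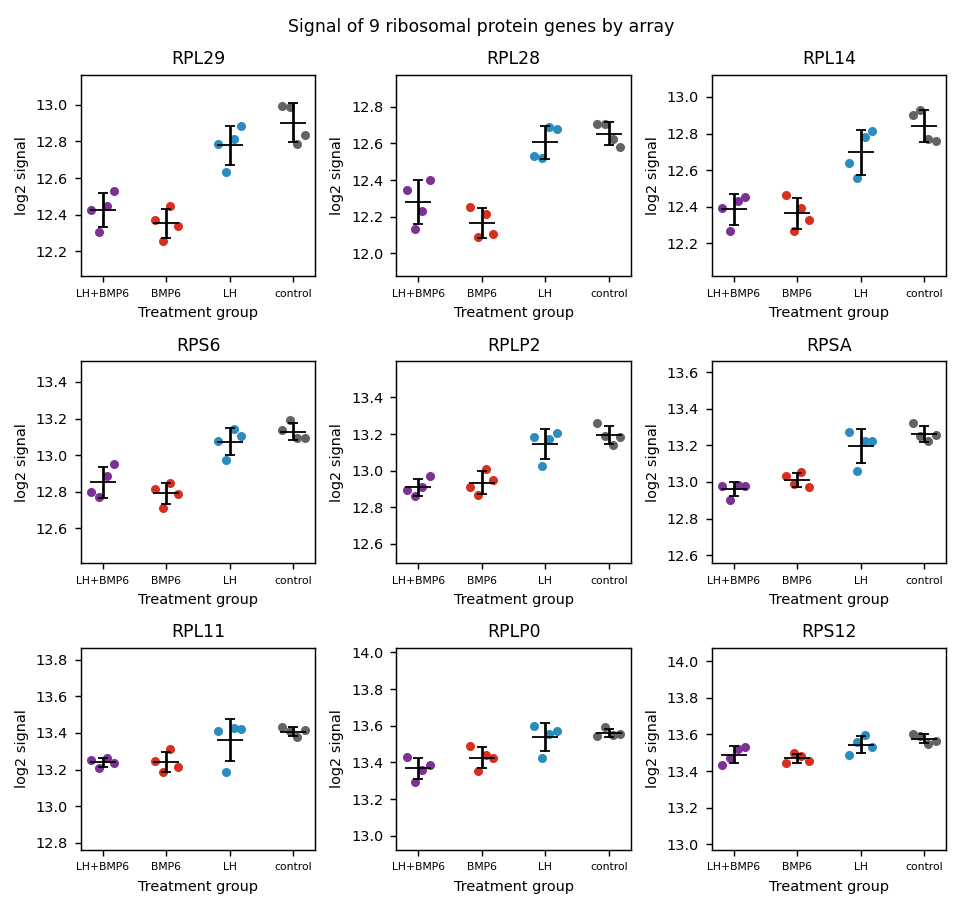
Log2 signal of 9 ribosomal protein genes on each array (points), with mean and SD of 4 arrays (bars), by treatment group; every panel spans the same height on the log2 axis. RPL29, RPL28 and RPL14 show the widest gaps of these 9 between BMP6 and control, and RPS12, RPLP0 and RPL11 the narrowest.

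Of the 25 small-subunit genes 20 were called lower and 0 higher, with a median of -0.22. RPS6, the substrate of the S6 kinases downstream of mTOR, had 12.82, 12.71, 12.85 and 12.79 on the BMP6 arrays, against 13.13, 13.19, 13.10 and 13.09 on the control arrays. The groups lay apart and the fall was -0.34 ± 0.06, adjusted p = 0.000441, so that the signal fell by 20.8%. RPS14, needed for maturation of the 40S subunit and known from the human 5q- syndrome, had 13.24, 13.19, 13.34 and 13.29 on the BMP6 arrays, against 13.62, 13.51, 13.44 and 13.48 on the control arrays (-0.25 ± 0.06, adjusted p = 0.00555). RPS28 stood at 10.15, 10.27, 10.27 and 10.28 with BMP6, against 10.63, 10.59, 10.41 and 10.44 in control (-0.27 ± 0.08, adjusted p = 0.0183), and BMP6 replicate 1 was the lowest of the 8. The RPS28 call was lost without the 3 arrays set apart by their hybridisation controls (adjusted p = 0.0835).

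The 3 brightest small-subunit genes had small differences. RPS29 (-0.16 ± 0.05, adjusted p = 0.0198) and RPS26 (-0.14 ± 0.05, adjusted p = 0.0377) were called lower, and RPS12 was not (-0.11 ± 0.04, adjusted p = 0.1). RPS26 read 13.54, 13.44, 13.42 and 13.44 on the BMP6 arrays, against 13.63, 13.61, 13.59 and 13.59 on the control arrays, which did not overlap. The RPS26 and RPS29 calls were both lost with quantile normalization (adjusted p = 0.281 and 0.11) and without the 3 arrays set apart by their hybridisation controls (adjusted p = 0.179 and 0.106). RPS4Y1, a gene for the small-subunit protein eS4, was not called (-0.14 ± 0.06, adjusted p = 0.145), nor was the dim probe set annotated RPS19 (-0.10 ± 0.11, adjusted p = 0.594). RPS4X has no probe set named here and the cells came from ovaries, so the RPS4Y1 probe set may measure another eS4 gene. The 15 small-subunit genes outside the naming rule ran from -0.35 (RPS7) to -0.08, with 13 called lower and 0 higher.

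Ribosomal protein paralogs are extra copies with tissue-restricted or stress-linked roles. RPS27L, which in human cells is induced by p53, had 11.47, 11.07, 11.33 and 11.22 on the BMP6 arrays, against 11.98, 11.73, 11.65 and 11.54 on the control arrays (-0.45 ± 0.11, adjusted p = 0.00658). Its control arrays had an SD of 0.19, and the groups did not overlap. RPL7L1, which takes part in building the large subunit, fell (-0.25 ± 0.07, adjusted p = 0.0183), as did RPL26L1 (-0.34 ± 0.09, adjusted p = 0.0168). Both calls were lost without the 3 arrays set apart by their hybridisation controls, for RPL7L1 at -0.25 (adjusted p = 0.0883) and for RPL26L1 at -0.35 (adjusted p = 0.0892). RPL3L was not called (-0.10 ± 0.09, adjusted p = 0.541), and neither was RPS19BP1, which is not a ribosomal protein (-0.16 ± 0.08, adjusted p = 0.184).

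The 12 genes not called lower with BMP6 were RPL7, RPL13A, RPL21, RPLP0, RPS3A, RPS4Y1, RPS12 and RPS15A among those with a mean signal of 12 or more, and RPL3L, RPL37, RPS19 and RPS19BP1 among the dimmer ones. Across the 59 genes at 12 or more, mean signal and the BMP6 difference correlated at r = 0.68, as a description over genes that share the same 8 arrays. Over all 69 genes r was -0.20, with the 10 dimmer genes between -0.49 and -0.01. The 7 dimmest of the 59 had a median of -0.34 and all 7 were called lower. The 17 brightest had a median of -0.19, and 13 of them were called lower. The part of the array ceiling in this was not tested. Among 121 further genes at 12 or more, 17 were called lower and 28 higher, with a median of 0.07.

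**Figure D3:**
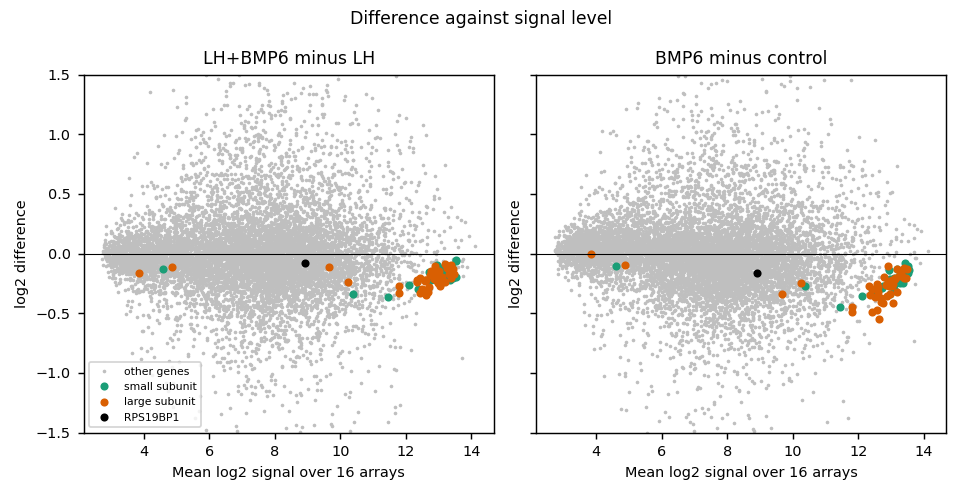
Log2 difference (vertical) against mean log2 signal over 16 arrays (horizontal) for LH+BMP6 minus LH on the left and BMP6 minus control on the right, with other named genes in grey and the axis cut at 1.5 either way. Most ribosomal protein genes form a group below 0 to the right of 12 on the horizontal axis, and within it the brighter ones tend to lie closer to 0.

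BMP6 added to LH was set against LH alone, which shares no array with the comparison above, to ask about stimulated cells. Here 45 of the 69 genes were called lower and 0 higher, beside 27.2% of all genes called, 15.5% lower and 11.7% higher. The median was -0.20, against -0.03 over all genes, and the values of all 69 were below 0. For 43 genes every LH+BMP6 array lay below every LH array, which held for 16.5% of all genes. The median signal of the 69 genes was 12.87, 12.75, 12.89 and 12.91 on the LH+BMP6 arrays, against 13.04, 12.94, 13.06 and 13.01 on the LH arrays. By subunit, 30 of 43 large-subunit genes (median -0.22) and 15 of 25 small-subunit genes (median -0.19) were called lower. The count was 25 without the 3 arrays set apart by their hybridisation controls, 29 in a fit to these 8 arrays alone, 29 without LH+BMP6 replicate 2, and 26, 15 and 17 without replicates 1, 3 and 4, with 0 higher each time.

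The largest falls in LH-stimulated cells were those of RPS27L (-0.37 ± 0.11, adjusted p = 0.0217) and RPL29 (-0.35 ± 0.07, adjusted p = 0.00166). RPS27L read 11.28, 11.16, 11.22 and 11.22 on the LH+BMP6 arrays, against 11.84, 11.63, 11.54 and 11.34 on the LH arrays, and RPL29 read 12.43, 12.30, 12.45 and 12.53 on the LH+BMP6 arrays, against 12.79, 12.63, 12.81 and 12.88 on the LH arrays. LH+BMP6 replicate 1, at its highest for RPS27L, still lay below LH replicate 4, and the groups of RPL29 did not overlap. RPS28 (-0.34 ± 0.08, adjusted p = 0.00391), RPL36A (-0.33 ± 0.08, adjusted p = 0.0102), RPL28 (-0.33 ± 0.07, adjusted p = 0.00219), RPL7A (-0.32 ± 0.07, adjusted p = 0.00268), RPL14 (-0.31 ± 0.07, adjusted p = 0.00391) and RPL13 (-0.30 ± 0.07, adjusted p = 0.0047) followed. The RPS27L call was lost without the 3 arrays set apart by their hybridisation controls (-0.28, adjusted p = 0.0637).

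RPS6 stood at 12.80, 12.77, 12.89 and 12.95 with both hormones, against 13.08, 12.97, 13.14 and 13.11 with LH (-0.22 ± 0.06, adjusted p = 0.00816). In the P stalk RPLP2 (-0.24 ± 0.05, adjusted p = 0.0039) and RPLP0 (-0.17 ± 0.05, adjusted p = 0.0237) were lower, as was RPSA (-0.24 ± 0.05, adjusted p = 0.00329). The RPLP0 arrays overlapped, with 13.43, 13.29, 13.36 and 13.39 in LH+BMP6, against 13.60, 13.42, 13.56 and 13.57 in LH, and its call was lost in 13 of 31 other settings. RPL5 fell (-0.27 ± 0.06, adjusted p = 0.00417) and RPL11 was not called (-0.12 ± 0.05, adjusted p = 0.133). For RPL11, LH replicate 2 lay at 13.19 among 3 others at 13.41 to 13.42, and without that array it was called (-0.18, adjusted p = 0.0105). RPL10A fell (-0.28 ± 0.08, adjusted p = 0.025), a call lost in 9 of 31 other settings, while RPL3 (-0.18 ± 0.08, adjusted p = 0.145), RPL35 (-0.13 ± 0.05, adjusted p = 0.0541), RPS26 (-0.06 ± 0.05, adjusted p = 0.372) and RPL26L1 (-0.11 ± 0.09, adjusted p = 0.453) were not called. Of the genes outside the naming rule, 17 of 24 large-subunit genes and 9 of 15 small-subunit genes were called lower and 0 higher, with the lowest values at RPL24 (-0.28) and RPS9 (-0.29).

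Of the genes called lower, 44 were called in both comparisons, which is 77.2% of the 57 with BMP6 alone and 97.8% of the 45 in LH-stimulated cells. With 82.6% of the 69 called with BMP6, a large overlap was likely in any case. The overlap over all genes was not counted. RPLP0 was called in the LH background alone on its main probe set, and 11 genes were called in neither. Its second bright probe set did the opposite, called with BMP6 (-0.21 ± 0.06, adjusted p = 0.0288) and not in LH-stimulated cells (-0.10 ± 0.06, adjusted p = 0.288). The mean of the RPLP0 probe sets was called with BMP6 (-0.25, adjusted p = 0.00799) and missed the threshold in LH-stimulated cells (-0.18, adjusted p = 0.0537). Across the 69 genes the differences of both comparisons correlated at r = 0.78, a description over genes whose probe sets and brightness are the same in both. Whether any gene responded differently to BMP6 in the presence of LH was tested directly by the interaction. It called 0 of the 69 genes by limma, as of all genes (0%), and 0 had an unadjusted p under 0.05. The median interaction was 0.05, with 59 of 69 values above 0, beside 4796 of 9155 over all genes. The 69 genes share the same arrays, and without replicate 2 their median was 0.01.

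**Figure D4:**
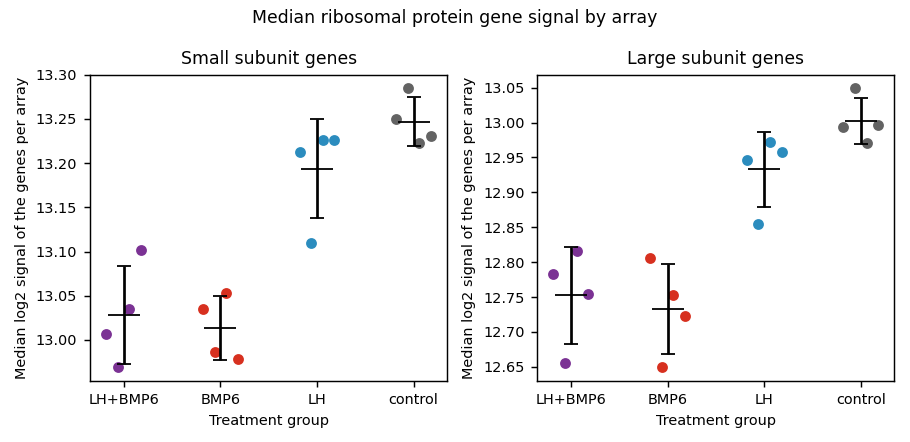
Median log2 signal of the 25 small-subunit genes (left) and the 43 large-subunit genes (right) on each array (points), with mean and SD of 4 arrays (bars). In both panels every array with BMP6 lies below every array without it, and LH replicate 2 is the lowest array without BMP6.

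LH alone moved none of these genes past the threshold. It called 0 of the 69 (0.0218% of all genes were called), and 1 had an unadjusted p under 0.05. The median difference from control was -0.05, with 62 of the 69 values below 0. For 6 genes every LH array lay below every control array, which held for 1.2% of all genes, and for 0 every LH array lay above (1.85%). RPL26L1 had the lowest value (-0.17 ± 0.09, adjusted p = 0.92). RPL3 (-0.17 ± 0.08, adjusted p = 0.914) stood at 12.75, 12.73, 12.99 and 12.74 with LH, against 12.92, 13.13, 12.94 and 12.90 in control. RPL29 (-0.12 ± 0.07, adjusted p = 0.923) and RPS6 (-0.05 ± 0.06, adjusted p = 0.952) were not called either. Without LH replicate 2 the median was -0.02. LH added to BMP6 gave a median of 0.00 against BMP6 alone, with 34 values below 0 and 35 above, 0 called (as of all genes, 0%) and 0 at an unadjusted p under 0.05. The arrays of LH+BMP6 and BMP6 overlapped for all 69, while 0.634% of all genes lay wholly below and 1.11% wholly above. The group means of the array medians were 12.85 ± 0.07 for LH+BMP6, 12.83 ± 0.07 for BMP6, 13.01 ± 0.05 for LH and 13.09 ± 0.04 for control. LH+BMP6 and BMP6 differed by less than their spread. LH and control lay 0.08 apart, more than either SD, with 0 genes called between them.

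On 19 genes the array carries further probe sets, 29 in all, most of them dim. The 4 that reached a mean signal of 11 were all called lower with BMP6 and 2 of them in LH-stimulated cells. They belong to RPL10 (-0.39 ± 0.07, adjusted p = 0.000775), RPLP0 (-0.21 ± 0.06, adjusted p = 0.0288), RPL15P (-0.32 ± 0.11, adjusted p = 0.0438) and RPL24, whose second probe set gave -0.93 ± 0.11, adjusted p = 1.93e-05, beside -0.37 ± 0.07 for its main one. Of the 25 dimmer probe sets 8 were lower with BMP6 and 3 higher, and in LH-stimulated cells 2 were lower and 4 higher. The 3 that were higher belong to RPS12 (0.66 ± 0.15, adjusted p = 0.00388), RPS4Y1 (0.52 ± 0.12, adjusted p = 0.00456) and RPL15P (0.54 ± 0.08, adjusted p = 0.000219), with mean signals of 9.35, 9.77 and 9.90 beside 13.52, 12.94 and 13.13 for the main probe sets. The same 3 were higher in LH-stimulated cells, together with a dim probe set of RPL3 (0.22 ± 0.08, adjusted p = 0.0491). RPL15P, which RefSeq lists as a pseudogene, is uncertain: its brightest probe set fell (-0.22 ± 0.06, adjusted p = 0.0179), and the mean of its 3 probe sets was 0.00 (adjusted p = 0.981). RPL3, RPL10, RPL24, RPS12 and RPS4Y1 were described by their second probe sets after the values were seen. Ribosomal protein genes have many processed pseudogenes, and probe sets may pick up transcripts of near-identical copies.

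The genes around the ribosome were followed by lists. Of 12 elongation factor and other oligopyrimidine-tract genes 5 were called lower with BMP6 and 0 higher (median -0.24), among them EEF1D (-0.66 ± 0.10, adjusted p = 0.000157) and EEF1B2 (-0.57 ± 0.08, adjusted p = 6.5e-05), both subunits of the exchange factor for the elongation factor eEF1A, and BTF3 (-0.42 ± 0.08, adjusted p = 0.00091) and NACA (-0.36 ± 0.09, adjusted p = 0.00867), the partners of the nascent polypeptide-associated complex at the exit tunnel. EEF1A1 itself (-0.04 ± 0.05, adjusted p = 0.639) and TPT1 (-0.04 ± 0.05, adjusted p = 0.674), did not pass the threshold; both were singled out with their values known. In LH-stimulated cells 4 of the 12 were called lower and 1 higher, the intermediate filament gene VIM (0.31 ± 0.09, adjusted p = 0.0188). Of 30 initiation factor genes 12 were lower with BMP6 and 0 higher (median -0.20), with EIF4B (-0.58 ± 0.11, adjusted p = 0.00156), EIF3H (-0.46 ± 0.11, adjusted p = 0.00588), EIF2S3 (-0.45 ± 0.10, adjusted p = 0.00386) and EIF3D (-0.43 ± 0.10, adjusted p = 0.00729) falling most. In LH-stimulated cells the count was 8 of 30 lower and 0 higher.

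Of 58 ribosome assembly genes 13 were called lower and 0 higher with BMP6, which is 22.4% beside the 15.5% of all genes, and the median was -0.13. MDN1, the large ATPase that remodels pre-60S particles, fell by most (-0.85 ± 0.11, adjusted p = 7.19e-05), and it fell in LH-stimulated cells too (-0.90 ± 0.11, adjusted p = 3.83e-05). DKC1, the pseudouridine synthase of ribosomal RNA (-0.60 ± 0.08, adjusted p = 8.58e-05), and the nucleolar GNL3 (-0.45 ± 0.12, adjusted p = 0.011) and MPHOSPH10 (-0.45 ± 0.09, adjusted p = 0.00257) fell too. In LH-stimulated cells 9 of the 58 were lower and 1 higher, a share called lower of 15.5%, equal to that of all genes, with a median of -0.07. In the RNA polymerase I list 3 of 12 fell with BMP6 and 0 rose, a share of 25%, with 4 of the 12 values above 0. The 3 were TAF1D (-0.78 ± 0.21, adjusted p = 0.0138), POLR1D, which RNA polymerase III shares (-0.51 ± 0.12, adjusted p = 0.00559), and POLR1E (-0.37 ± 0.13, adjusted p = 0.0496). In LH-stimulated cells 2 of those 12 fell and 0 rose, a share of 16.7%, near the 15.5% of all genes. There too 4 of the 12 values were above 0 (median -0.06). Among 18 genes of mTOR, S6 kinase and MYC control 3 fell with BMP6 and 0 rose. That share of 16.7% lay near the 15.5% of all genes, and 10 of the 18 values were below 0 and 8 above (median -0.04). AKT1S1, an inhibitor within the mTOR complex, fell (-0.54 ± 0.10, adjusted p = 0.00103), as did MYC, the transcription factor that promotes ribosome production (-0.50 ± 0.12, adjusted p = 0.00731). EIF4EBP1, a repressor of cap-dependent initiation, fell too (-0.39 ± 0.12, adjusted p = 0.0373). In LH-stimulated cells MYC was not called (-0.19 ± 0.12, adjusted p = 0.322). There AKT1S1 fell (-0.31 ± 0.10, adjusted p = 0.0335) and the kinase gene RPS6KA1 rose (0.46 ± 0.10, adjusted p = 0.00265).

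Other housekeeping assemblies are given for scale. Genes of the mitochondrial ribosome, a separate set of proteins, had 43 of 67 called lower and 0 higher with BMP6 (median -0.28), and 32 of 67 lower and 0 higher in LH-stimulated cells (median -0.22). Proteasome genes had 7 of 40 lower and 0 higher in either comparison, with medians of -0.11 and -0.10. That share of 17.5% lay near the 15.5% of all genes called lower in each comparison. The mitochondrial set had shares called lower of 64.2% with BMP6 and 47.8% in LH-stimulated cells. The cytosolic ribosomal protein genes had shares called lower of 82.6% with BMP6 and 65.2% in LH-stimulated cells. The differences between these sets were not tested. The quartiles of the 69 differences were -0.34 and -0.19 with BMP6, and those of the mitochondrial set were -0.39 and -0.20.

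**Figure D5:**
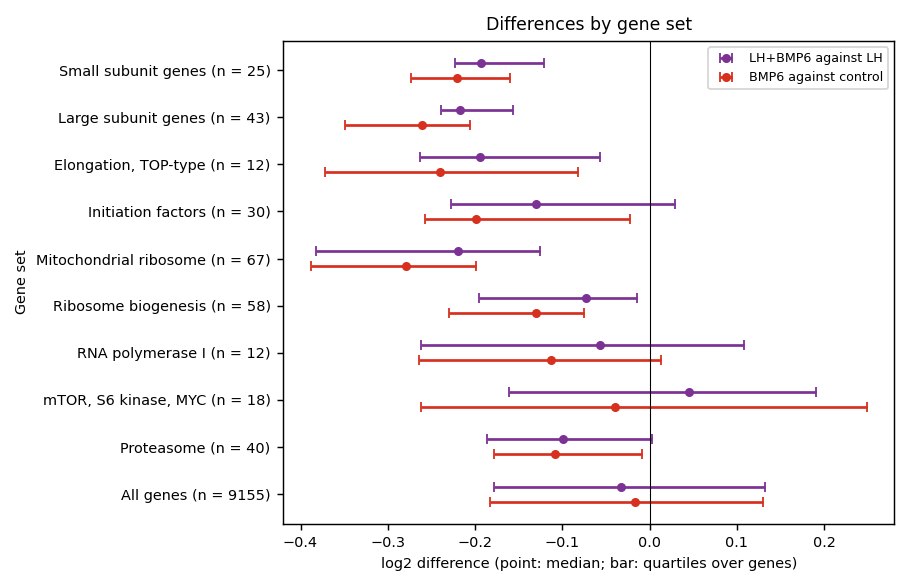
Median log2 difference (points) with the quartiles over genes (bars) for 10 gene sets, LH+BMP6 against LH in purple and BMP6 against control in red. Medians of both ribosomal subunits and of the mitochondrial ribosome lie near -0.2 to -0.3, those of all genes near 0.

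Several other measures were followed with BMP6 beside these genes. Of all genes 15.5% were called lower and 9.31% higher in that comparison. Of 7 theca markers 6 were lower and 0 higher, among them INSL3, a theca peptide hormone (-5.70 ± 0.55, adjusted p = 2.69e-06), and CYP17A1, the enzyme of androgen synthesis (-2.80 ± 0.52, adjusted p = 0.00115). The mean of the 7 lay between 7.25 and 7.58 on the BMP6 arrays, against 9.78 to 10.3 on the control arrays. Of 10 pericyte and fibroblast markers 4 were called higher and 0 lower, led by DES and the matrix gene DCN, while 2 of the 10 values were below 0. Array means were 9.47 to 9.84 with BMP6, against 9.19 to 9.56 in control. In LH-stimulated cells 3 of the 10 were higher and 1 lower, the pericyte gene RGS5 (-0.84 ± 0.29, adjusted p = 0.0469). Of 7 leukocyte markers only CD14 was higher with BMP6, a share of 14.3%, and 0 were lower. Array means were 6.93 to 7.55 with BMP6, against 6.83 to 6.92 in control. In LH-stimulated cells 5 of those 7 were higher, beside 11.7% of all genes, with array means of 7.19 to 7.56 in LH+BMP6 and 6.50 to 7.02 in LH. Granulosa markers had 0 of 5 called with BMP6, with 2 values below 0 and 3 above. The lowest value was -0.86, and the smallest adjusted p of the 5 was 0.0512, just over the threshold. Array means were 4.4 to 4.59 with BMP6 and 4.62 to 4.77 in control, which did not overlap, and FSHR had a mean of 3.49 over the 16 arrays. Of 8 endothelial markers only CLDN5 was lower with BMP6, a share of 12.5% beside the 15.5% of all genes. Array means were 5.37 to 5.94 with BMP6 and 5.7 to 6.32 in control. Of 4 red blood cell markers 0 were called, at 4.51 to 4.74 with BMP6 and 4.54 to 4.62 in control. The 3′ minus 5′ signal of actin, a sign of RNA integrity, was 1.72 ± 0.28 in LH+BMP6, 1.86 ± 0.28 in BMP6, 2.10 ± 0.16 in LH and 2.20 ± 0.35 in control, and that of GAPDH 0.14 ± 0.02, 0.23 ± 0.04, 0.27 ± 0.11 and 0.34 ± 0.05 in the same order. For GAPDH the BMP6 arrays (0.18 to 0.27) all lay below the control arrays (0.29 to 0.41), while for actin these 2 groups overlapped. The part of all these measures in the ribosomal protein differences was not tested.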

How the data were processed

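The deposited table holds log2 signals, made by the authors with RMA in Affymetrix Expression Console, per the submitters' processing notes; no software version is named in the sources used here. RMA sets the array distributions nearly equal. The values were used as deposited, with 0 value columns left unused. Of 24128 probe sets, 112 Affymetrix controls were left out and 24016 tested. GEO's platform annotation gives 1 symbol to 13292 of these, several to 86, which were left unnamed, and none to 10638. Symbols were updated through Entrez identifiers, found for 13263, and 0 changed. RefSeq names are those of the ARS-UCD2.0 assembly.

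Groups were compared with limma 3.58.1 in R 4.3.3 (1 coefficient per group over 16 arrays, eBayes with trend, Benjamini-Hochberg over 24016 probe sets), tested on simulated data. The number of arrays limits the precision: the median SE of a difference over these 69 genes was 0.06. Genes were named by rule: up to 8 largest called changes per comparison, the 5 brightest and 5 dimmest, P stalk, paralogs, RPS6, RPS14, RPS19, RPL5, RPL11, genes with opposing probe sets, and up to 4 called genes per other list. The genes and lists were chosen with earlier results of these data known. Alternatives were the replicate block, fixed or random (statmod 1.5.0), no trend, a filter on dim probe sets, the compared arrays alone, 3 scalings, the mean of a gene's probe sets, the hybridisation-control split, and leaving out arrays or replicate numbers. Figures used Python 3.11.15 with matplotlib 3.10.9.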

Additional observations from a re-analysis of the deposited data

Results flagged for a closer look

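In 132 groups of 4 arrays (30 named genes and 3 array medians in each treatment group), 7 had an array whose gap to the nearest other array passed the critical value of Dixon's test for 4 values. Chance alone marks about 1 group in 20. With LH, replicate 2 was low for RPL11, at 13.19, and for the median of the small-subunit genes, at 13.11. RPL3 was high on LH replicate 3, at 12.99, and on control replicate 2, at 13.13. With BMP6, RPL37 was low on replicate 2, at 3.55, and RPS28 on replicate 1, at 10.15. RPSA was low on LH+BMP6 replicate 2, at 12.90.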

How the results depend on the processing

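In each of the 31 other settings 0 genes were called higher in any comparison, and the counts for LH against control, LH+BMP6 against BMP6 and the interaction stayed at 0. For BMP6 against control the count was 59 with the replicate block (58 as a random effect) against 57, and the LH+BMP6 against LH count was 47 (49) against 45. Deviations of arrays with the same replicate number correlated at -0.11 to 0.15 for BMP6 and control and 0.02 to 0.32 for LH and control. They correlated at 0.09 to 0.27 for LH+BMP6 and LH, where 4 of 4 arrays correlated best with their own number. For LH+BMP6 and BMP6 the range was 0.08 to 0.69, so some arrays of the same number clearly shared deviations. Because not every pair passed 0.1, the main fit did not pair the samples by number, which does not show that they are unpaired. With the block RPLP0 passed the threshold for BMP6 (adjusted p = 0.0497) and RPL35 for LH+BMP6 against LH (adjusted p = 0.0436, and 0.0375 as a random effect). Without the 3 arrays set apart by their hybridisation controls the counts were 37 and 25 (2660 of all probe sets called with BMP6, against 4340 on all arrays). With this split as a term on all 16 arrays, the BMP6 calls of RPS26, RPS27L, RPS28, RPS29, RPL7L1, RPL11 and RPL15P were lost (adjusted p = 0.0587 to 0.159). The other named genes kept their side of the threshold with BMP6. The 3 arrays were control or LH arrays, so the split is partly confounded with treatment. With the compared arrays alone LH+BMP6 against LH gave 29. Leaving out 1 array gave counts of 44 to 57 and 29 to 48, and leaving out a replicate number 37 to 45 and 15 to 41. The BMP6 median was -0.17 after renewed quantile normalization; the cause was not tested. Under each scaling 68 or 69 of the 69 values were below 0 in both comparisons. Leaving out arrays or replicate numbers, the medians ranged from -0.28 to -0.21 for BMP6, -0.23 to -0.17 for LH+BMP6 against LH, -0.07 to -0.02 for LH, -0.03 to 0.03 for LH+BMP6 against BMP6 and 0.01 to 0.09 for the interaction. Among the 30 named genes in the BMP6 comparison, 82 calls were lost and 4 gained over these settings while 840 kept their side of the threshold, and for LH+BMP6 against LH 77 were lost, 7 gained and 843 kept. RPL15P changed sign with the mean of its probe sets (0.0033), where a dimmer probe set was higher. Signals of the brightest genes lie near the top of the array, and RPL37, RPS19 and RPL3L near its lower quartile, which limits what their values can show.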
